A study of Mus musculus with 272 samples.

Results

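In muscle stem cells (MuSCs) of the mouse, 1092 of 21938 protein-coding genes had open chromatin near a start site without a peak of any of the 3 histone marks that were mapped. A gene was chosen by the peak lists themselves. It needed an ATAC-seq peak in both replicates within 3 kb of any transcription start site of the gene in GENCODE M21, and no peak of H3K4me3, H3K27ac or H3K27me3 in either replicate within the same windows. The paper describes its MuSCs as GFP-positive cells sorted from hindlimb muscle of Pax7Cas9 mice. In these mice Pax7Cre switches on a knock-in of Cas9 and EGFP at Rosa26, so that GFP marks cells that express or once expressed Pax7. Its methods for ATAC-seq and ChIP-seq do not repeat the source of the cells. All 8 libraries are taken as MuSCs, with 2 replicates each of ATAC-seq, H3K4me3, H3K27ac and H3K27me3. Their labels give skeletal muscle as the tissue with no age and no treatment. There is a single population of cells, so no groups are compared, and of the 272 samples only these 8 are described.

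ATAC-seq marks DNA that a transposase can reach, as is found where transcription factors have displaced nucleosomes. H3K4me3 is laid down around start sites of transcribed genes and of many CpG islands, H3K27ac accompanies active promoters and enhancers, and H3K27me3 is the mark of Polycomb repression. An accessible start site normally carries at least one of these marks, and accessible sites that carry none are known from insulator sites bound by CTCF and from regulatory elements that are bound but not active.

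The ATAC-seq lists held 140937 peaks in replicate 1 and 94574 in replicate 2. The histone lists were shorter, with 20519 and 18006 peaks of H3K4me3, 24217 and 18589 of H3K27ac, and 6080 and 10485 of H3K27me3. The H3K27me3 peaks were also narrow and weak, with median widths of 176 and 181 bp and median folds of 3.93 and 3.76. For H3K4me3 these were 1158 and 1027 bp and 12.7 and 11.7. The absence of an H3K27me3 peak is therefore the least certain part of the rule. The 13 marker genes of MuSCs that were looked up, among them *Pax7*, *Myf5* and *Calcr*, were all open with H3K4me3 in both replicates, so none of them belongs to the genes described here. The lists hold no read numbers, the depth is unknown, and a promoter without a listed peak counts as unmarked whatever the reason.

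Of all protein-coding genes, 67.8% (14872) had a promoter ATAC-seq peak in both replicates. Among these open genes 1349 had no H3K4me3 peak in either replicate, 1211 had neither H3K4me3 nor H3K27ac, and 1092 had none of the 3 marks. The open unmarked promoters thus made up 4.98% of all protein-coding genes, 7.34% of the open genes, and 14.2% of the 7665 genes with no histone peak in either replicate. A further 352 open genes missed the rule through 1 mark in 1 replicate only, which was H3K4me3 for 220, H3K27ac for 73 and H3K27me3 for 59. For comparison, 13143 genes had ATAC-seq and H3K4me3 peaks in both replicates, with or without the other marks, and 5677 genes had no promoter peak of any kind.

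The sequences under 9 of these peaks are shown because they carry the features that the following sections count: one member open at its start site, distant peaks of strong members, and muscle and lymphocyte genes. Each is the plus strand of mm10 (read from RefSeq GRCm38.p6), up to 100 bases on either side of the ATAC-seq summit of replicate 1 and ended at any annotated exon. Capitals mark matches on either strand to AP-1 (TGANTCA), an E-box (CAGCTG), a GC box of SP and KLF factors (GGGCGG), a RUNX motif (TGTGGT) or the core of the CTCF motif. A match is a description of the letters and not evidence of binding. The peaks of *Slc2a6* (chr2:27027999-27028114, just upstream of the gene), *Cd300lg* (chr11:102040207-102040407, upstream) and *Isx* (chr8:74870503-74870703, upstream) lie outside genes. That of *Pde6h* (chr6:136925161-136925361) lies in an intron of both *Pde6h* and *Arhgdib* and is also the strongest peak of *Erp27*. For *Cd7* (chr11:121041339-121041539) it lies upstream of the gene in an intron of *Gm11775*, and for *Tnnt2* (chr1:135852443-135852643) beyond the 3′ end of the gene, 3093 bp downstream of the nearest start. The peaks of *Ttn* (chr2:76981738-76981938), *Myh3* (chr11:67080295-67080495) and *Fbp2* (chr13:62856310-62856456) lie in introns of these genes. *Fbp2*, a fructose bisphosphatase of muscle, was chosen after its values were seen, as a start site with a CTCF core.
*Slc2a6*: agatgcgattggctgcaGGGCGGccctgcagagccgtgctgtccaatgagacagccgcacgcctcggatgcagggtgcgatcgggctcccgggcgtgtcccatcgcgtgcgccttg
*Cd300lg*: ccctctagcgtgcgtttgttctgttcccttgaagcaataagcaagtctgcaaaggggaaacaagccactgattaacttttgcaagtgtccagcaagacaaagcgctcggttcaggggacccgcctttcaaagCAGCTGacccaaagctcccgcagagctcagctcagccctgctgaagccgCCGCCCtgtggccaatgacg
*Isx*: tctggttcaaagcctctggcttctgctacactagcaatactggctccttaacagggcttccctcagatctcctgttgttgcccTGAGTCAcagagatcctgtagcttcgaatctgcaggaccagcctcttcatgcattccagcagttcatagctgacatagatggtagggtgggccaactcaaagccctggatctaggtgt
*Pde6h* and *Erp27*: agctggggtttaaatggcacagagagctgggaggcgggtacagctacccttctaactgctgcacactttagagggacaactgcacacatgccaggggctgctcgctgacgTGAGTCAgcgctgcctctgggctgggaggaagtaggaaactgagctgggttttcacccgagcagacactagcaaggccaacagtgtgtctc
*Cd7*: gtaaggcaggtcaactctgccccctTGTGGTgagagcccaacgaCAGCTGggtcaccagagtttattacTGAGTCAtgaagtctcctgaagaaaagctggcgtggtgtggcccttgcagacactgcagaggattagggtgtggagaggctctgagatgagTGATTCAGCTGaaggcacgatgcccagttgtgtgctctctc
*Tnnt2*: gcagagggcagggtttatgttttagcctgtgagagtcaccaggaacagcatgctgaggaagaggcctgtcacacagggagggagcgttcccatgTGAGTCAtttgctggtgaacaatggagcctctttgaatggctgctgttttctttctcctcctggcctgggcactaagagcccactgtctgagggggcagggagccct
*Ttn*: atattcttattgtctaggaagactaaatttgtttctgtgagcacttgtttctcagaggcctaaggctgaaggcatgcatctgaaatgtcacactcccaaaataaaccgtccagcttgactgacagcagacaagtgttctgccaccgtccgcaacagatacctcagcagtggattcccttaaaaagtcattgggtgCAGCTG
*Myh3*: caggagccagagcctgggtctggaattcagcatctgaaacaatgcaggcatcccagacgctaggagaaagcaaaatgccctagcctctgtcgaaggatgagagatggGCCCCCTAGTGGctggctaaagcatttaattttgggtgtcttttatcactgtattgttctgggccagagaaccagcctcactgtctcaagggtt
*Fbp2*: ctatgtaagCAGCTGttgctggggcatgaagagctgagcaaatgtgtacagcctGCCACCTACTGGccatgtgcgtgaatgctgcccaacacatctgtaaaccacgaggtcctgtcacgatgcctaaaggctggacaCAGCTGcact

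The accessible sites of these promoters were weak and narrow. The strongest promoter peak of a member had a median fold enrichment over the local background, as MACS2 reports it at the summit, of 7.49 in replicate 1 and 6.72 in replicate 2 (7.10 ± 0.548, SD, n = 2). In the open promoters with H3K4me3 the medians were 14.2 and 12.9 (13.6 ± 0.921). The middle range of members ran from 5.64 to 10.4 in replicate 1 and from 5.19 to 9.13 in replicate 2, so that the upper quartile of members lay near the lower quartile of the promoters with H3K4me3, which was 10.9 and 9.74. These folds describe the same lists that chose the genes. The strongest peaks of members spanned a median of 148 and 190 bp, against 490 and 563 bp with H3K4me3. Outside promoters, ATAC-seq peaks that both replicates share, taken with or without histone marks, had median widths of 157 and 192 bp and median folds of 6.43 and 6.45. In fold and width, members thus lay close to open chromatin away from promoters and far from promoters with H3K4me3. The 2 promoter classes give the strongest peak of each gene, however, while the values outside promoters are medians over all shared peaks. The 637 open promoters with another combination of marks, those with a histone peak but not with H3K4me3 in both replicates, were also close to members, with median folds of 8.85 and 7.71 and widths of 192 and 228 bp. Members also had shorter promoter windows, with a median of 3 start sites and 8186 bp in all, against 5 start sites and 12024 bp with H3K4me3.

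The rule asks for a peak in both replicates, so the agreement of replicates within members is partly fixed by it. Replicate 1 of ATAC-seq and of the histone marks, taken alone, gave 1974 open genes without a histone peak, of which the 1092 members are 55.3%. This share also depends on histone peaks found only in replicate 2, so it does not measure the agreement of ATAC-seq alone. In 1024 members (93.8%) an ATAC-seq peak of replicate 1 overlapped one of replicate 2 within the windows, and in 814 the strongest peaks themselves overlapped. In these 814 the 2 folds were within 2 times of each other in 802 genes (98.5%), and Spearman's rho between replicates was 0.800. In the 278 whose strongest peaks lay at different places the folds were within 2 times in 218 (78.4%), with a rho of 0.475. Both correlations are across genes and given as a description, since neighbouring genes can share a peak and every point comes from the same pair of libraries. Among the genes whose folds are given below, the strongest peaks of the replicates did not overlap in *Aldh1l1*, *Tph2*, *Scg2*, *Csf1r*, *Kcns2*, *Cyp8b1*, *Krt4*, *Ugt1a7c*, *Pi16*, *Cdh5*, *Prf1*, *Siglecg*, *Clec4d*, *Ldhc*, *Sbsn*, *Il12rb1*, *Tlr9*, *Ctsw* and *Gm49369*, so that their 2 folds belong to different sites.

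**Figure D1:**
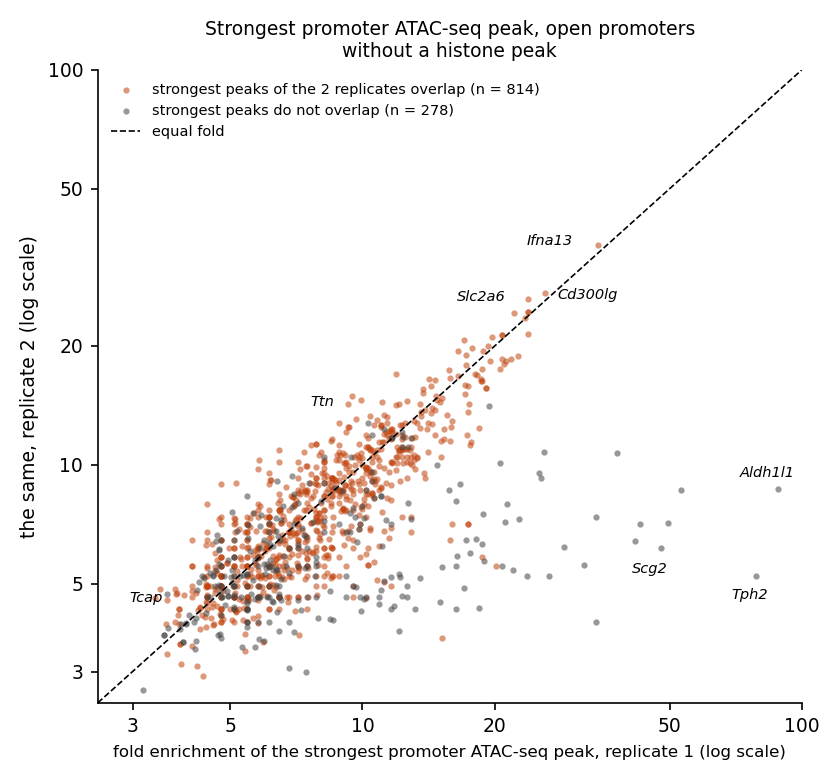
Fold enrichment of the strongest promoter ATAC-seq peak of each of the 1092 members in replicate 1 (horizontal axis) and replicate 2 (vertical axis), both on log scales. Orange points have strongest peaks that overlap between replicates (n = 814), grey points do not (n = 278), and the dashed line marks equal folds. Most points follow the line up to *Ifna13*, while a group of grey points reaches folds of up to 88.0 in replicate 1 and stays low in replicate 2.

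The plot of the 2 replicates against each other shows where they part. In replicate 1, 12 members had a strongest peak of at least 30-fold, and for 11 of them, all but *Ifna13*, that peak overlapped no ATAC-seq peak of replicate 2. *Aldh1l1*, which encodes a folate enzyme of astrocytes and liver, reached 88.0-fold in replicate 1 on chr6:90488716-90488841, 2353 bp downstream of the nearest start. In replicate 2 its strongest peak was 8.68-fold and lay 44 bp from another start. *Tph2*, the tryptophan hydroxylase of serotonergic neurons, had 78.6-fold on chr10:115173052-115173172 in replicate 1 and 5.24-fold in replicate 2, again at a different place. *Scg2*, a granin of neuroendocrine cells, had 47.8-fold and 6.17-fold, likewise at different places. All 3 also had a weaker promoter peak that overlapped between the replicates, and they were chosen after their values were seen. Over all members, the strongest peak of replicate 1 had no counterpart in replicate 2 for 187 genes (17.1%), with a median width of 100 bp against 168 bp for the others, and the strongest peak of replicate 2 had none in replicate 1 for 93 genes (8.52%), with a highest fold of 7.14. Such peaks were also seen with H3K4me3, where 92 of the 197 genes that reached 30-fold in replicate 1 had a strongest peak without a counterpart in replicate 2, and 0 of the 42 that did so in replicate 2 had one without a counterpart in replicate 1. Because of them, members are ranked by the lower of the 2 folds.

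By that rank the first member was *Ifna13*, a type I interferon gene on chromosome 4 (ENSMUSG00000063376.6, 88643641 to 88644459, minus strand). Its peak had 34.3-fold and 36-fold in replicates 1 and 2, but its summit lay 3305 and 3269 bp downstream of the start, where the edge of the peak reached into the window. It is 1 of only 3 members whose strongest ATAC-seq peak itself overlapped a histone peak lying just beyond the window, the others being *Ido2* and *Chrm4*. *Ifna13* thus meets the rule at its edge. *Cd300lg*, a receptor of the CD300 family expressed in endothelium, followed with 26-fold and 27.3-fold, 1202 and 1201 bp upstream of its single start on chromosome 11 (102041509 to 102055620, plus strand). *Slc2a6*, a member of the glucose transporter family, had 23.8-fold and 26.3-fold, 16 and 30 bp upstream of a start, with a GC box and CpG observed over expected of 0.776. Its nearest H3K4me3 peak of replicate 1 was 15.3 kb away.

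The predicted genes *Gm13276* and *Gm13277* share one peak of 23.8-fold and 24.4-fold, which covers the start of *Gm13277* and lies 2899 and 2869 bp from that of *Gm13276*. *Erp27*, a chaperone-like protein of the endoplasmic reticulum, and *Pde6h*, a subunit of the phosphodiesterase of cone photoreceptors, share the peak printed above with 20.8-fold and 21.3-fold. These pairs are 1 accessible site each and not 2 observations. *Liph*, a lipase that makes lysophosphatidic acid, had 22.1-fold and 24.2-fold at 9 and 27 bp from a start, with an AP-1 motif in both replicates. *Cacng2*, a partner of AMPA receptors, had 23.4-fold and 23.5-fold over a start site, and *Fgf1*, a fibroblast growth factor, 23.8-fold and 21.5-fold.

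The remaining genes of the first 20 were in order *Pkhd1*, *Isx*, *Ripor3*, *Gm20715*, *Insl6*, *Chgb*, *Mtnr1a*, *Serpina6*, *Defb42* and *Cplx4*, with folds from 17.8 to 22.6 in replicate 1 and from 18 to 21.1 in replicate 2. Most of those with a known function are used in other tissues. *Pkhd1* encodes fibrocystin of renal tubules, *Isx* an intestinal homeobox factor, *Chgb* a granin of neuroendocrine vesicles, *Mtnr1a* a melatonin receptor, *Serpina6* the corticosteroid-binding globulin made by liver, and *Cplx4* a complexin of retinal synapses. Of the first 20, 10 had a peak over a start site in both replicates, 6 had a CpG observed over expected of at least 0.6, and 0 had a CTCF core in both replicates. At the other end, the weakest members were *Ctsw* (7.43 and 2.99), *Cpsf4l* (4.33 and 2.93) and *Gm49369* (3.16 and 2.69).

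In most of these genes the accessible site was near the start but not on it. An ATAC-seq peak covered an annotated start site in 323 members in replicate 1 and in 335 in replicate 2 (30.1% ± 0.777, SD, n = 2), compared with 91.5% ± 0.194 of the promoters with H3K4me3. The difference of the 2 classes was far larger than that between replicates. Members have fewer starts and promoter peaks, however, and the part of these numbers in the difference was not tested. Promoters open with other combinations of marks were between the classes, at 48.4% ± 2.22. The median distance from the summit of the strongest peak to the nearest start was 900 and 684 bp, against 76.0 bp in both replicates with H3K4me3. The summit was within 100 bp of a start in 22.5% ± 1.68 of members and in 57.1% ± 0.264 of the genes with H3K4me3, and over 1000 bp away in 46.1% ± 2.98 and 10.3% ± 0.570. Summits lay in an intron in 41.5% ± 0.648 of members, in an exon in 25.3% ± 0.971 and outside genes in 33.2% ± 0.324. With H3K4me3, exons held 48.3% ± 2.75 and introns 20.2% ± 0.0968.

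**Figure D2:**
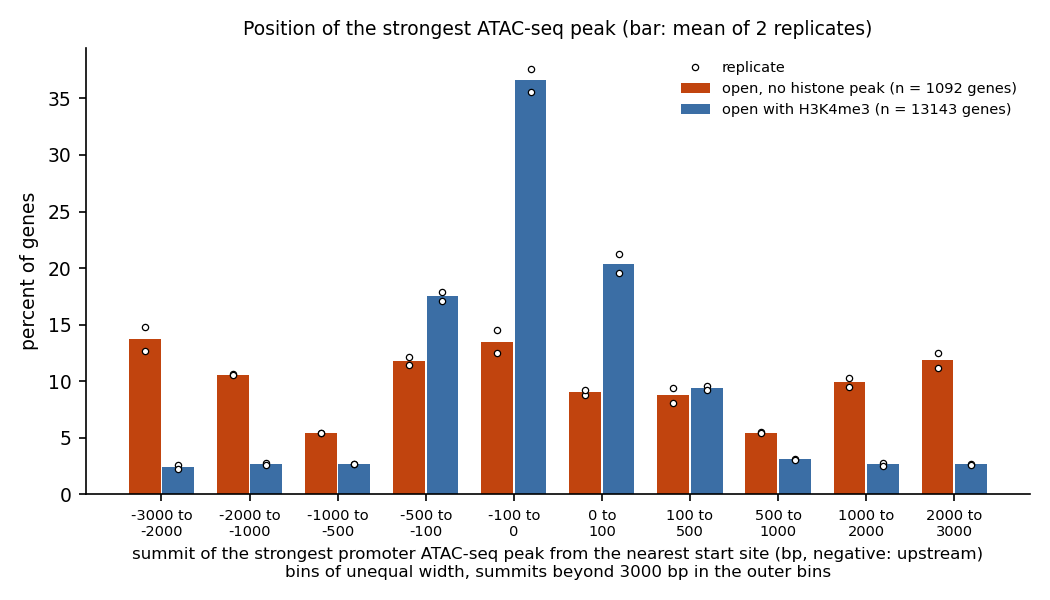
Position of the summit of the strongest promoter ATAC-seq peak relative to the nearest start site, in bp with negative values upstream, as the percent of 1092 members (orange) and of 13143 genes open with H3K4me3 (blue). Bars are means of 2 replicates and circles the replicates. Summits of members spread over the whole window, with 22.5% within 100 bp of a start, while those with H3K4me3 gather at the start.

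Members with a peak over a start site had the higher folds. In 272 members a peak covered a start site in both replicates, in 271 of them the same site. A protein-coding transcript starts there in 226 cases, and it is the outermost 5′ end of the gene in 184. The strongest peaks of these 272 had median folds of 8.72 and 8.05, compared with 7.07 and 6.26 for the 706 members without a peak over a start in either replicate. Their strongest summits lay a median of 66.0 and 52.0 bp from a start. The strongest peak need not be the one over the start, as in *Tnnt2*, where its summit was 3093 and 3106 bp from the nearest start. The share with a covered start rose with the lower fold, from 12.6% of the 309 members below 5-fold and 27.5% of the 610 between 5-fold and 10-fold to 35.8% of the 134 from 10-fold to 15-fold and 43.6% of the 39 above. The 100 strongest members also had wider strongest peaks, with medians of 294 and 318 bp. The parts of width and of the numbers of peaks and starts per gene were not tested.

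The 5′ ends of these genes were poor in CpG. Within 150 bases on either side of the gene's 5′ end, the ratio of observed to expected CpG had a median of 0.258 in members, with quartiles of 0.156 and 0.407. It was 0.797 in open promoters with H3K4me3, 0.362 in those with other combinations of marks and 0.172 in genes without any promoter peak. The 896 genes without a histone peak that had a promoter ATAC-seq peak in 1 replicate only were close to members, at 0.232. A ratio of at least 0.6, as is typical of CpG islands, was found at 107 members (9.80%), 74.9% of the genes with H3K4me3, 9.71% of the unmarked genes open in 1 replicate only and 7.91% of those without a peak. This is a property of the reference genome, which the rule does not use. The GC content at the start was 54.5% in members, between the 46.8% of genes without a peak and the 63.8% with H3K4me3. The TATA box letters TATAAA stood within 45 bases upstream of the 5′ end in 54 members (4.95%), in 5.58% of the unmarked genes open in 1 replicate only, in 6.66% of genes without a peak and in 1.16% of those with H3K4me3. Members with a covered start in both replicates also had CpG-poor 5′ ends, with a median of 0.313 and 37 of 272 at or above 0.6. The covered start was that 5′ end in 184 cases, and CpG at other covered starts was not measured. CpG-rich members did exist, such as *Gria2* (0.916), an AMPA receptor subunit, and *Slc2a6*.

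**Figure D3:**
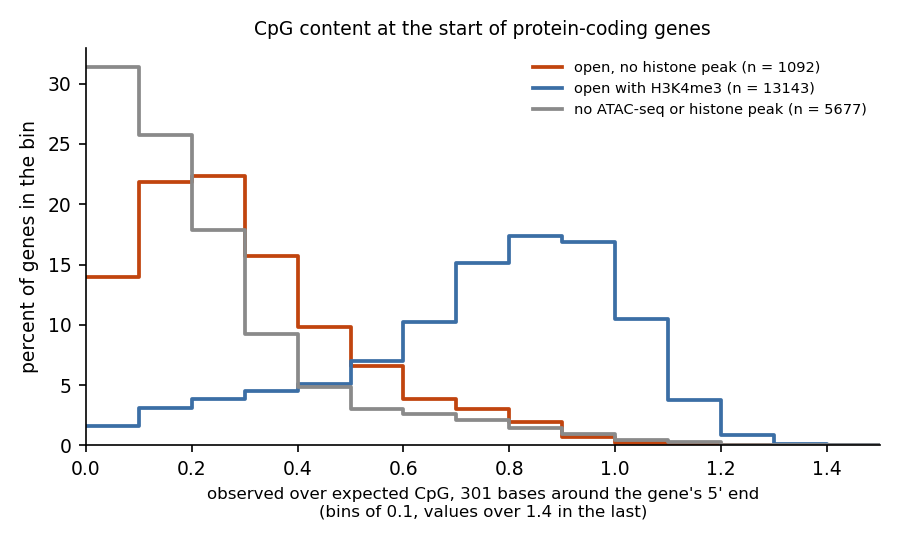
Distribution of the ratio of observed to expected CpG in the 301 bases around the 5′ end of protein-coding genes, as the percent of genes in bins of 0.1. Members (orange, median 0.258) lie close to genes without any promoter peak (grey, 0.172) and apart from open promoters with H3K4me3 (blue, 0.797).

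Around the summits, 5 short motifs of members were closer in frequency to open chromatin outside promoters than to promoters with H3K4me3. Within 201 bases centred on the strongest summit, the E-box CAGCTG, a site of myogenic and other bHLH factors, was present in 28% ± 2.46 of members (SD, n = 2), in 14.3% ± 0.452 of the promoters with H3K4me3 and in 32.3% ± 0.489 of the 48588 and 44841 summits outside promoters of any annotated gene. AP-1 letters were present in 20.7% ± 1.23, 6.19% ± 0.204 and 26.9% ± 0.554 of these. The RUNX motif was found in 19.1% ± 0.907, 7.61% ± 0.0592 and 18.6% ± 0.263. The NFI half-site TTGGCA was found in 12.2% ± 0.194, 6.33% ± 0.377 and 16% ± 0.335, and the TEAD motif GGAATG in 11.7% ± 0.453, 6.71% ± 0.0161 and 14.3% ± 0.162. For all 5 motifs the members lay nearer to the summits outside promoters than to those with H3K4me3. The gap to those with H3K4me3 was larger than the spread between replicates. Except for RUNX, so was the gap to the summits outside promoters. Promoters with other combinations of marks shared much of this. They held the E-box in 27.9% ± 3, AP-1 letters in 15.5% ± 0.555 and the RUNX motif in 15.1% ± 0.555. NFI was found in 10.8% ± 0.111 and TEAD in 9.26% ± 1.11. Their E-box share differed from that of members by less than the spread between replicates. For the E-box, AP-1, NFI and TEAD, members lay nearer to these promoters than to the summits outside promoters. For RUNX, members lay nearer to the summits outside promoters.

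The motifs of CpG-rich promoters were scarcer in members than in promoters with H3K4me3. The GC box GGGCGG was present in 14% ± 1.23 of members and 58.5% ± 0.194 of the promoters with H3K4me3. It was in 25.4% ± 0.888 of the promoters with other combinations of marks and in 7.70% ± 0.0642 of summits outside promoters. The ETS letters CCGGAA were in 3.85% ± 0.259 of members and 22.1% ± 0.737 with H3K4me3. With other combinations of marks they were in 6.91% ± 0.444, and outside promoters in 3.80% ± 0.0403. The cAMP response element TGACGTCA was rare everywhere, with 0.687% ± 0.0648 in members and 2.17% ± 0.113 with H3K4me3. The other 2 classes had it in 1.02% ± 0.333 and 0.522% ± 0.0128. All 3 contain a CpG, and the classes differ in CpG content as given above, whose part in these shares was not tested.

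The core of the motif of CTCF, the insulator protein, was the one motif of the 9 that was more frequent in members than in promoters with H3K4me3, promoters with other combinations of marks and open chromatin outside promoters by clearly more than the replicate spread. It was present in 77 and 80 members in replicates 1 and 2 (7.19% ± 0.194), in 4.05% ± 0.104 of summits outside promoters, in 3.38% ± 0.111 of those with other combinations of marks and in 1.10% ± 0.0108 of those with H3K4me3. The summits outside promoters include sites with histone marks. Unmarked sites among them were not compared separately, so the part of the marks in the difference was not tested. In 69 members both replicates had it at the strongest summit. Of these 69, 5 also had AP-1 letters in both replicates (7.25%, against 15.3% of all members), and 13 had a peak over a start site in both, compared with 272 of all 1092. Their folds were ordinary, with medians of 7.80 and 6.91, and the core was held by 4.53% of members below 5-fold, 7.54% between 5-fold and 10-fold, 5.22% from 10-fold to 15-fold and 5.13% above. *Myh3*, the embryonic myosin heavy chain, is an example, with 7.76-fold and 7.75-fold at a CTCF core 2095 and 2128 bp downstream of its start, and *Il17b* is another, with 15.8-fold and 16.6-fold at 201 and 189 bp from the start.

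**Figure D4:**
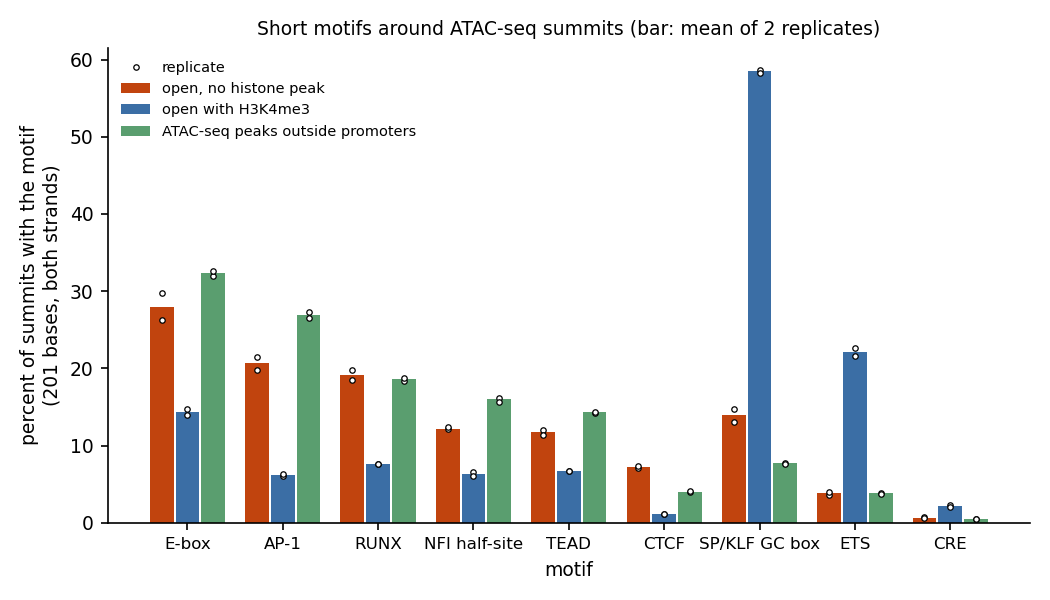
Percent of ATAC-seq summits with each of 9 short motifs within 201 bases on either strand, for members (orange), promoters with H3K4me3 (blue) and peaks outside promoters (green). Bars are means of 2 replicates and circles the replicates. Members lie nearer to the green than to the blue bars for the E-box, AP-1, RUNX, NFI, TEAD and ETS letters. For the GC box they lie above the green and far below the blue bars, and for CTCF they exceed both (7.19%).

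The rule keeps histone peaks out of the windows, and for most members the nearest ones lay well beyond them. The median distance from a start of a member to the nearest H3K4me3 peak was 22 and 26 kb in replicates 1 and 2, and to the nearest H3K27ac peak 26.3 and 30.6 kb. For genes without any promoter peak these distances were 136 and 147 kb and 166 and 190 kb. For the unmarked genes with ATAC-seq in 1 replicate only they were 47.7 and 53.4 kb and 61.0 and 71.0 kb. H3K27me3 was farther from members, at 291 and 188 kb, against 805 and 583 kb for the closed genes that have a peak on their chromosome. The H3K27me3 lists were also the shortest, and the part of their length in these distances was not tested. An H3K4me3 peak lay within 10 kb of 24.4% and 20.3% of members and an H3K27me3 peak within 10 kb of 1.92% and 3.57%. From the ATAC-seq summit, the nearest peak of H3K4me3 or H3K27ac was a median of 20.5 and 20.7 kb away, and it was over 50 kb away for 24.9% and 24.5%. Within the gene but beyond the windows, 48 members had an H3K4me3 peak in both replicates, 42 had H3K27ac and 6 had H3K27me3. The 5′ end of 136 members (12.5%) was inside another protein-coding gene, as in 12.9% of the genes with H3K4me3 and 8.75% of those without a promoter peak. For 86 members (7.88%) that other gene had H3K4me3 at its own promoter in both replicates, which lies between the 12.2% and 3.21% of these classes.

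At the 3 kb limit the rule divides genes whose nearest histone peaks differ by few bases. *Il12rb1*, *Mzb1* and *C1qtnf9* were members with an H3K4me3 peak of replicate 1 at 3016, 3019 and 3031 bp from a start. *Pcp2* and *Tbx6* missed the rule through an H3K4me3 peak of replicate 1 at 2998 and 2974 bp, and *Sla* through an H3K27ac peak of replicate 2 at 2972 bp. The ATAC-seq folds in replicates 1 and 2 were 3.85 and 3.85 for *Il12rb1*, 6.64 and 5.42 for *Mzb1* and 9.34 and 8.82 for *C1qtnf9*. Just outside the rule they were 4.47 and 4.63 for *Pcp2*, 13.7 and 5.45 for *Tbx6* and 6.85 and 7.08 for *Sla*, so that both sides hold weak and stronger peaks. In all, 117 members (10.7%) had a histone peak between 3 and 5 kb from a start, 752 (68.9%) had none within 10 kb, and 204 (18.7%) had none within 50 kb.

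Genes of differentiated muscle were among the members. Of 40 genes for the sarcomere and contraction, 34 were open in both replicates, 13 of them with H3K4me3 in both, 13 with another combination of marks and 8 with no mark (20.0%, against 4.98% of all protein-coding genes). These shares, like all that follow, are descriptions without a test. *Tnnt2*, cardiac troponin T, had 13.9-fold and 13.8-fold. *Ttn*, the giant spring protein titin, had 9.27-fold and 14.3-fold at 617 and 572 bp downstream of a start, with an E-box in the summit window. *Myl2*, the regulatory light chain of slow and cardiac muscle, had 10.8-fold and 9.19-fold directly over a start. These 3 were the strongest of the 8, and their nearest H3K4me3 peaks of replicate 1 were 17.4, 150 and 15 kb away.

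The other 5 were weaker. *Myh3* is given above, and the troponin I genes *Tnni2* and *Tnni1*, of fast and slow fibres, had 7.96-fold and 7.57-fold and 7.88-fold and 7.15-fold. *Myom2*, which crosslinks thick filaments, had 5.41-fold and 6.75-fold, and *Tcap*, the titin cap, 3.83-fold and 4.33-fold at 789 and 754 bp from a start, just above the lowest members. None of the 8 had a CpG observed over expected of 0.6 or more, with *Ttn* highest at 0.473.

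Several lists of immune genes also had shares above 4.98%. Of 30 lymphocyte genes 8 were members (26.7%), only 1 was open with H3K4me3 in both replicates, and 12 had no promoter peak. *Cd7*, a T cell surface protein, had 15.2-fold and 14.8-fold about 2 kb upstream of its start on a site with AP-1, E-box and RUNX letters. *Cd3d*, a chain of the T cell receptor complex, had 9.19-fold and 12.1-fold. The T cell surface proteins *Cd6* and *Cd5* had 9.04-fold and 7.79-fold and 6.95-fold and 8.31-fold. Peaks of the B cell gene *Cd22*, of perforin (*Prf1*) and of the interleukin receptor chain *Il2rb* were between 4.96-fold and 7.15-fold in replicate 1 and between 5.04-fold and 6.17-fold in replicate 2. Of 82 interleukins and their receptors 14 were members (17.1%), led by *Il17b*, *Il18* (19.1 and 15.7 at its start) and *Il20rb* (11.2 and 13.4 at its start). Of 35 chemokines there were 6 (17.1%), led by *Ccl2* (11.4 and 11.9), *Ccl5* (10.3 and 11.7) and *Ccl7* (9.13 and 10.6), which attract monocytes and T cells. The AP-1 letters were at the strongest summit of *Ccl5* and *Ccl7* in both replicates and not at that of *Ccl2*.

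Smaller immune families gave 2 of 12 toll-like receptors (16.7%, *Tlr12* and *Tlr9*) and 3 of 6 sialic acid-binding lectins (50.0%, *Siglec15*, *Siglece* and *Siglecg*). Other immune families were near the share of all genes, with 3 of 56 C-type lectins (5.36%, *Clec3b*, *Clec4g* and *Clec4d*) and *Ms4a6d* of 19 *Ms4a* genes and their relatives (5.26%). Their folds were modest, from 3.8 for *Tlr12* to 10.6 for *Clec3b* in replicate 1.

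Markers of other cells of muscle were also among the members. Of 10 endothelial markers 3 were members (30%, against 4.98% of all protein-coding genes), *Pecam1* (10.8 and 13), *Cdh5* (6.36 and 5.45) and *Tie1* (4.43 and 4.93), and 5 were open with H3K4me3. Of 9 blood cell markers, *Cd3e* (13.5 and 12.4) and *Csf1r* (12.3 and 12.1) were members (22.2%) and 4 were open with H3K4me3. Of 10 markers of fibro-adipogenic cells only *Pi16* (fold enrichments of 7.4 and 5.48) was a member (10.0%) and 5 were open with H3K4me3. These are shares of short lists, in which 1 gene moves the share by 10 percentage points or more. In bulk libraries a weak site in many cells and a strong site in few cells cannot be told apart, and the part of other cells in these peaks was not tested.

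Genes of tissues outside muscle gave mixed shares. Male germ cell markers had 3 of 13 (23.1%, against 4.98% of all protein-coding genes). They were the protamines *Prm1* (7.15 and 8.63) and *Prm2* (3.84 and 3.52) and *Ldhc* (4.77 and 4.93). Keratinocyte markers had *Sbsn* of 13 (7.69%), with 13.2-fold and 4.33-fold at different sites. These marker lists are short as well, so that a single gene moves the share by much. There were 0 of 10 neuron markers and 0 of 14 hepatocyte markers, and of these 5 and 0 were open with other combinations of marks. Of 100 cytochrome P450 genes 9 were members (9%), led by *Cyp8b1* (11.2 and 12.3), *Cyp17a1* (12.1 and 10.9) and *Cyp11a1* (10.2 and 11.1), enzymes of bile acid and steroid synthesis. Of 61 serpins 6 were members (9.84%), with *Serpina6* followed by *Serpinb9b* and *Serpind1*. Solute carriers had 31 of 371 (8.36%), led by *Slc2a6*, *Slc7a14* (18.2 and 16.9) and *Slc4a5* (11.3 and 12.1). Potassium channels had 9 of 94 (9.57%), led by *Kcnv2*, *Kcns2* and *Kcnd1*. Subunits of glutamate and GABA receptors had 4 of 43 (9.30%), led by *Gria2*, *Gria1* and *Grm2*.

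Shares near 4.98% were found for keratins and their associated proteins, with 7 of 110 led by *Krt82*, *Krt79* and *Krt4*, for defensins with 3 of 64 (*Defb42*, *Defb36* and *Defb45*, of which the last 2 share a peak), for UDP-glucuronosyltransferases and sulfotransferases with 2 of 43 (*Sult5a1* and *Ugt1a7c*), and for *Mrgprd*, 1 of 20 Mas-related receptors, at 18.7-fold and 17.5-fold. The 2089 predicted and RIKEN genes had 112 members (5.36%).

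The large sensory families and the zinc finger genes lay below it in opposite states. Of 1135 olfactory receptor genes 11 were members (0.969%), and 1022 had no promoter peak. *Olfr983* (15.7 and 17.4), *Olfr149* (12.6 and 14.5) and *Olfr224* (12.6 and 10.5, at its start) led them, and 11 of the 14 olfactory receptor genes that were open in both replicates were members. There were 0 members among 331 vomeronasal and 38 taste receptors, of which 310 and 34 had no promoter peak. Of 394 *Zfp* genes only *Zfp366* and *Zfp474* were members (0.508%), and 326 were open with H3K4me3. Ribosomal protein genes had none. The 1 member found by their name prefix, *Rps6kl1*, encodes a kinase-like protein, and 85 of the 98 genes with the prefix were open with H3K4me3. Caspases and gasdermins had 0 of 20.

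**Figure D5:**
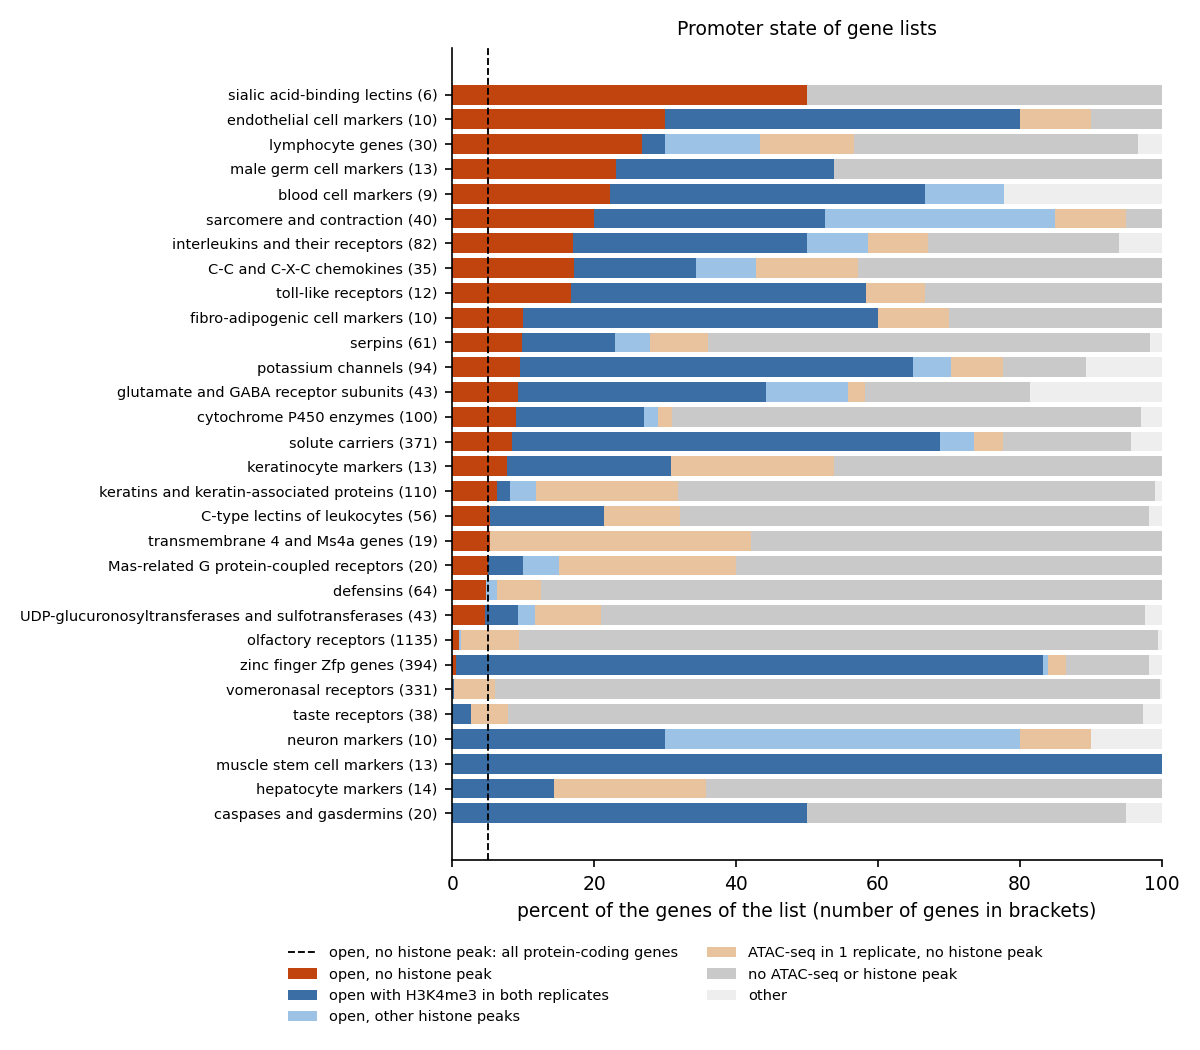
Share of each gene list in each promoter state, in percent of the genes of the list, whose number is given in brackets. Orange is the share of open promoters without a histone peak, the dashed line its value over all protein-coding genes (4.98%), and the other colours are the remaining states. Sialic acid-binding lectins, endothelial markers, lymphocyte genes, male germ cell markers, blood cell markers and sarcomere genes reach 20.0% to 50.0%, and the 13 MuSC markers are all open with H3K4me3.

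Members were spread over the genome with some local runs. On the autosomes they made up from 3.89% of the protein-coding genes (chromosome 12) to 6.63% (chromosome 16), on the X chromosome 2.53% (24 of 948) and on the Y chromosome 0 of 183. The strongest peak of replicate 1 was shared by several members at 29 sites, which concerned 62 genes, so that the 1092 members had 1059 distinct strongest peaks. With starts at most 50 kb apart, 258 members formed 116 runs, 5 of them with at least 4 members. The runs were named after they were seen. They were *Golt1a*, *Kiss1*, *Ren1* and both genes annotated as *Gm28040* on chromosome 1, *Ctla2a*, *Ctla2b* and 3 predicted genes on chromosome 13, the osteocalcin genes *Bglap*, *Bglap2* and *Bglap3* with *Paqr6* on chromosome 3, the serine proteases *Prss21*, *Prss32*, *Prss33* and *Prss41* on chromosome 17, and the antigen presentation genes *H2-Ob*, *H2-Aa* and *H2-Eb2* with *Btnl2* on the same chromosome. Neighbouring genes of a family can have similar sequences, and reads that align to several copies were removed by the authors' mapping quality filter, so peaks in such runs are given as uncertain.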

How the data were processed

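ATAC-seq and ChIP-seq libraries of MuSCs were used as the 8 deposited peak lists. Per the paper and the submitters' processing notes, reads were trimmed with Trim Galore 0.6.10, aligned to mm10 with BWA 0.7.17-r1188, filtered for mapping quality, duplicates (SAMtools 1.5 and Sambamba) and blacklisted regions (bedtools), shifted for the Tn5 offset (deepTools 3.5.5, ATAC-seq only), and peaks were called by the authors with MACS2 2.2.6 for each library. The deposited lists give a score, the fold enrichment at the summit (a ratio), and, as −log10 values, the p-value and q-value of the authors. H3K27me3 peaks were listed down to a p-value threshold and the others to a q-value threshold. Inputs were not used here. Depth is unknown because the lists hold no read numbers, so no interval is given, and 2 replicates limit the precision. The labels do not say whether replicates came from separate animals.

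Those on the 21 assembled chromosomes were set against all transcript start sites of GENCODE M21 (comprehensive). A peak counted from 1 bp inside 3 kb of a start. For each gene and replicate the peak of highest fold was the strongest. Motifs were counted on both strands within 100 bases of its summit, and CpG and TATAAA at the 5′ end of the gene, in GRCm38.p6. Distances run from the summit to the nearest start. Values are given per replicate or as mean ± SD of 2, without tests, since the lists that choose the genes are the measurement and genes are not replicates. Named genes are the 20 strongest members by the lower replicate and the 3 weakest, all members of marker, sarcomere and lymphocyte lists, up to 3 of each gene family, and genes next to the 3 kb limit; others are named as chosen after their values were seen. The members and lists were chosen with earlier results of these data known. The code for overlaps was checked with simulated intervals. Python 3.11.15, numpy 2.4.6, pandas 2.3.3 and matplotlib 3.10.9 were used. The alternatives were other windows, peak thresholds, histone criteria, start sites, summits in place of peaks, single replicates, a larger CpG window, and, chosen after seeing the data, overlapping peaks and the removal of peaks that touch a histone peak.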

Additional observations from a re-analysis of the deposited data

How the results depend on the processing

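The number of members stayed within 1.5 times of 1092 under all alternatives, from 756 with 1 kb windows to 1548 without replicate 1, except that replicate 2 left out gave 1974, so single replicates ranged from 1548 to 1974. The 1092 members were 55.3% of those 1974 and 70.5% of the 1548. With 1 kb windows, 681 of the 756 genes were members of the 3 kb set. The median fold moved by less than the spread between replicates throughout, between 6.56 and 7.53.

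The share of members with a peak over a start site moved from 30.1% to 45.4% with 1 kb and 36.5% with 2 kb windows. In narrower windows distant peaks no longer count, and the set of members changes as well. It was 34.7% when only peaks reaching 5 in −log10 q counted, 36.1% when a histone peak in 1 replicate was allowed, 29.1% for starts of protein-coding transcripts, 31.2% when overlapping ATAC-seq peaks were required (chosen after seeing the data), and from 21.3% to 34.2% with single replicates. All of these are below the 91.5% of promoters with H3K4me3 in 3 kb windows. The cause of these moves was not tested.

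The median CpG ratio stayed between 0.240 (1000 bases around the start) and 0.280 (peaks reaching 5 in −log10 q), with 0.267 for 1 kb windows, 0.261 for H3K27me3 peaks at q of at most 0.05, 0.277 with a histone peak in 1 replicate allowed, and 0.261 to 0.263 with single replicates. These moves exceed the spread of 0.00201 between single replicates and are small beside the gap to 0.797. No paired analysis was possible because no result comes from a test. The absence of a histone peak depends on the unknown depth of each library, and a weak mark below the calling threshold counts as none. Peak lists do not measure transcription, so they do not say whether these genes are expressed.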
